A study of Mus musculus with 2 samples.

Results

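Lipid-associated macrophage genes are a group of 9 genes, Trem2, Spp1, Gpnmb, Apoe, Lpl, Cd36, Fabp5, Cd9 and Lgals3, that were chosen by name from the 32285 features of droplet single-cell RNA libraries of mouse liver tumours. Each of the 9 symbols matched 1 row of the count matrices. Their UMIs (unique molecular identifiers, 1 per captured RNA molecule) were summed in 4 populations of cells set by marker counts. C1q macrophages had at least 3 UMIs of C1qa, C1qb and C1qc together and at most 1 of the Kupffer cell genes Cd5l, Clec4f and Fcna. Kupffer-type cells, the resident macrophages of the liver, had at least 2 UMIs of those Kupffer genes. Monocytes, the blood-borne precursors of many macrophages, had at least 3 UMIs of Lyz2, at most 1 of the C1q genes and less than 1% of UMIs from S100a8 and S100a9. Tumour cells had at least 5 UMIs of the keratins Krt8 and Krt18 and none of Ptprc, the pan-leukocyte gene CD45.

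The series held 1 shSrsf10 library, from tumours of mice with a short hairpin RNA against the splicing factor Srsf10, and 1 shCtrl library, whose genotype label is WT. Mouse strain, age, the tumour model and the cells that carried the hairpin are not named in the labels, nor is the number of mice behind each library. The labels describe the preparation in conflicting ways. The design text has digested tumours, a flow cytometry sort with no stated gate and a 10x 5' kit. The sample protocol has a liver suspension spun at low speed to sediment hepatocytes and a 10x 3' V3 kit. With 1 library per group there was no replicate check, and no test between groups was made. All intervals below are at 95% and cover counting error only.

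In fat tissue, fatty liver and tumours, macrophages that take up lipid and dying cells are known to turn on a shared set of genes. Trem2, a surface receptor for lipids and lipoproteins, is their best known marker and signals through the adaptor Tyrobp. The other genes of the group encode secreted proteins (Spp1, Apoe, Lpl), proteins that move or store fatty acids (Cd36, Fabp5), and membrane or lysosome-linked proteins (Gpnmb, Cd9, Lgals3). Several of them are not restricted to macrophages, since hepatocytes make Apoe and epithelial tumour cells can make Spp1, Cd9 and Lgals3.

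The promoters of Trem2, Spp1 and Gpnmb, the genes with the lowest ratios between the libraries in C1q macrophages, are shown from 250 bases before to 50 bases after the RefSeq start site on GRCm38.p6. They lie at chr17:48346151-48346450, chr5:104434861-104435160 and chr6:49036268-49036567, all on the + strand. Capitals mark matches to TGANTCA, a loose pattern for the AP-1 motif that allows any base at N, in Trem2 and Gpnmb. The match reads TGAATCA in Trem2 and TGACTCA in Gpnmb. In Spp1 they mark GAGGAAGT, a motif of the myeloid factor PU.1.
Trem2: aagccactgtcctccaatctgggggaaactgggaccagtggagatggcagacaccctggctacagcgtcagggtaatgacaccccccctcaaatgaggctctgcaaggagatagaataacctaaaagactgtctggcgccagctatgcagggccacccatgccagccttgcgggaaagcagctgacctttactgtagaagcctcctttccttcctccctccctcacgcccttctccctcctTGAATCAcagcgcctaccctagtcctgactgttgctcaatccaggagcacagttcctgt
Spp1: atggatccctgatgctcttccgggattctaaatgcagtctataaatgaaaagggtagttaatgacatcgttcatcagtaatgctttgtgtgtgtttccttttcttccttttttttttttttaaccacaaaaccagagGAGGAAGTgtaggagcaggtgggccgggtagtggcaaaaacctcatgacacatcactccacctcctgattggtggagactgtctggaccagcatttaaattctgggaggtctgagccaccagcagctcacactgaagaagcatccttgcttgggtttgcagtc
Gpnmb: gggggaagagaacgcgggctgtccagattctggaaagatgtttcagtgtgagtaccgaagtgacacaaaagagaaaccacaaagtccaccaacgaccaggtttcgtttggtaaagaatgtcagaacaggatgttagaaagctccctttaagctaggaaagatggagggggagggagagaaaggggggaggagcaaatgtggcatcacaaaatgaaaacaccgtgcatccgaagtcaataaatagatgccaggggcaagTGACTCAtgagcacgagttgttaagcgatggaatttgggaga
The AP-1 match began 9 bases before the Trem2 start site (-9) and at base 9 after the Gpnmb start site. The PU.1 match began at -113 in Spp1. Both motifs and the E-box CACGTG were searched on both strands in the 7 of 9 genes with a promoter in the RefSeq table, which lists none for Lpl and Fabp5, and no matches overlapped. AP-1 letters were in 2 of the 7 promoters, against 7.81% of all 32851 promoters in that table. PU.1 letters were in 1 of the 7, against 3.20%. The E-box was in none of the 7, against 7.15%. The RefSeq start site lay -52905 bases (Cd36, - strand) and 6109 bases (Lgals3, + strand) from the GENCODE gene start, inside the gene in both. That table lists 3 promoters for Apoe and 2 for Spp1, and only the nearest to the GENCODE start was searched. A match describes letters in the searched window only.

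The shSrsf10 file held 7553 barcodes and 136419902 UMIs, and the shCtrl file 9920 barcodes and 143327661 UMIs. After filters on depth, mitochondrial share and likely doublets, 7038 shSrsf10 and 8814 shCtrl cells remained. The libraries shared 67 barcode sequences, 56 of them among kept cells. Srsf10 itself, the target of the hairpin, was at 19.6 CPM (UMIs of a gene per 1000000 UMIs of the same population) in shSrsf10 tumour cells and 46.1 CPM in shCtrl tumour cells, a log2 ratio of -1.24 (-1.31 to -1.17). In C1q macrophages it was at 37.2 and 38.6 CPM, a log2 ratio of -0.05 (-0.93 to 0.80).

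C1q macrophages numbered 136 in shSrsf10 and 262 in shCtrl, with 591171 and 724583 UMIs in all and a median of 3281.5 and 2070.5 UMIs per cell. A further 15 shSrsf10 and 19 shCtrl barcodes that also met the tumour definition were left out. All 9 macrophage markers were detected in both libraries, among them Csf1r, the growth factor receptor of macrophages, at 239 CPM in shSrsf10 and 396 CPM in shCtrl, Cd68 at 633 and 673 CPM, Adgre1 at 79.5 and 106 CPM, and Mrc1 at 40.6 and 59.3 CPM. Monocytes numbered 107 and 108, tumour cells 3704 and 6325, and Kupffer-type cells 9 and 139. A ratio between libraries was formed only with at least 20 cells in each, so Kupffer-type cells are described by their levels. All 7 monocyte markers were detected in monocytes, summing to 19904 CPM in shSrsf10 and 13153 CPM in shCtrl, and all 7 tumour epithelial markers in tumour cells, summing to 8334 and 10492 CPM. T cells (1839 and 320) and neutrophils (89 and 40) served as cells that should hold little of most of these genes.

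C1q macrophages held RNA of genes used as markers of other cell types, in unequal amounts in the libraries. The summed level of 7 tumour epithelial markers, all detected in both libraries, was 348 CPM in shSrsf10 and 934 CPM in shCtrl. The 5 T cell markers summed to 621 and 179 CPM, the 5 neutrophil markers to 983 and 139 CPM with Cxcr2 and Retnlg at 0 in both, and the 3 fibroblast markers to 145 and 17.9 CPM. The 6 Kupffer markers summed to 10.1 CPM, with Clec4f, Timd4, Vsig4 and Marco at 0, in shSrsf10 and to 63.5 CPM, with Vsig4 at 0, in shCtrl. The 7 monocyte markers summed to 4792 and 3217 CPM, with Lyz2 alone at 3018 and 2570 CPM. Ly6c2 was at 294 and 19.3 CPM, Plac8 at 1270 and 447 CPM, and Chil3 at 52.4 and 9.66 CPM. Ccr2 (32.1 and 41.4 CPM, from 19 and 30 UMIs) and Vcan (1.69 and 4.14 CPM, from 1 and 3 UMIs) were lower in shSrsf10. Fcgr1 was close in both libraries, at 123 and 126 CPM. Whether the RNA of these markers came from other cells or from the macrophages was not tested, nor was its part in the ratios below.

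In C1q macrophages 6 of the 9 genes, Trem2, Spp1, Gpnmb, Apoe, Cd36 and Cd9, were at least 1.5-fold lower in shSrsf10 than in shCtrl, and 0 were at least 1.5-fold higher. Of all 5619 genes with at least 20 UMIs there, 19.7% were lower and 12.4% higher by that fold. Lpl, Fabp5 and Lgals3 lay between. The median log2 ratio of the 9 genes was -1.03, beside -0.04 over all genes measured. Genes with few UMIs pass the fold more often: 21.8% of genes with fewer than 200 UMIs were lower, against 7.28% of genes with at least 200 UMIs. Trem2, Spp1, Gpnmb, Cd36 and Cd9 belong to the first class, and Apoe, Fabp5, Lgals3 and Lpl to the second.

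**Figure D1:**
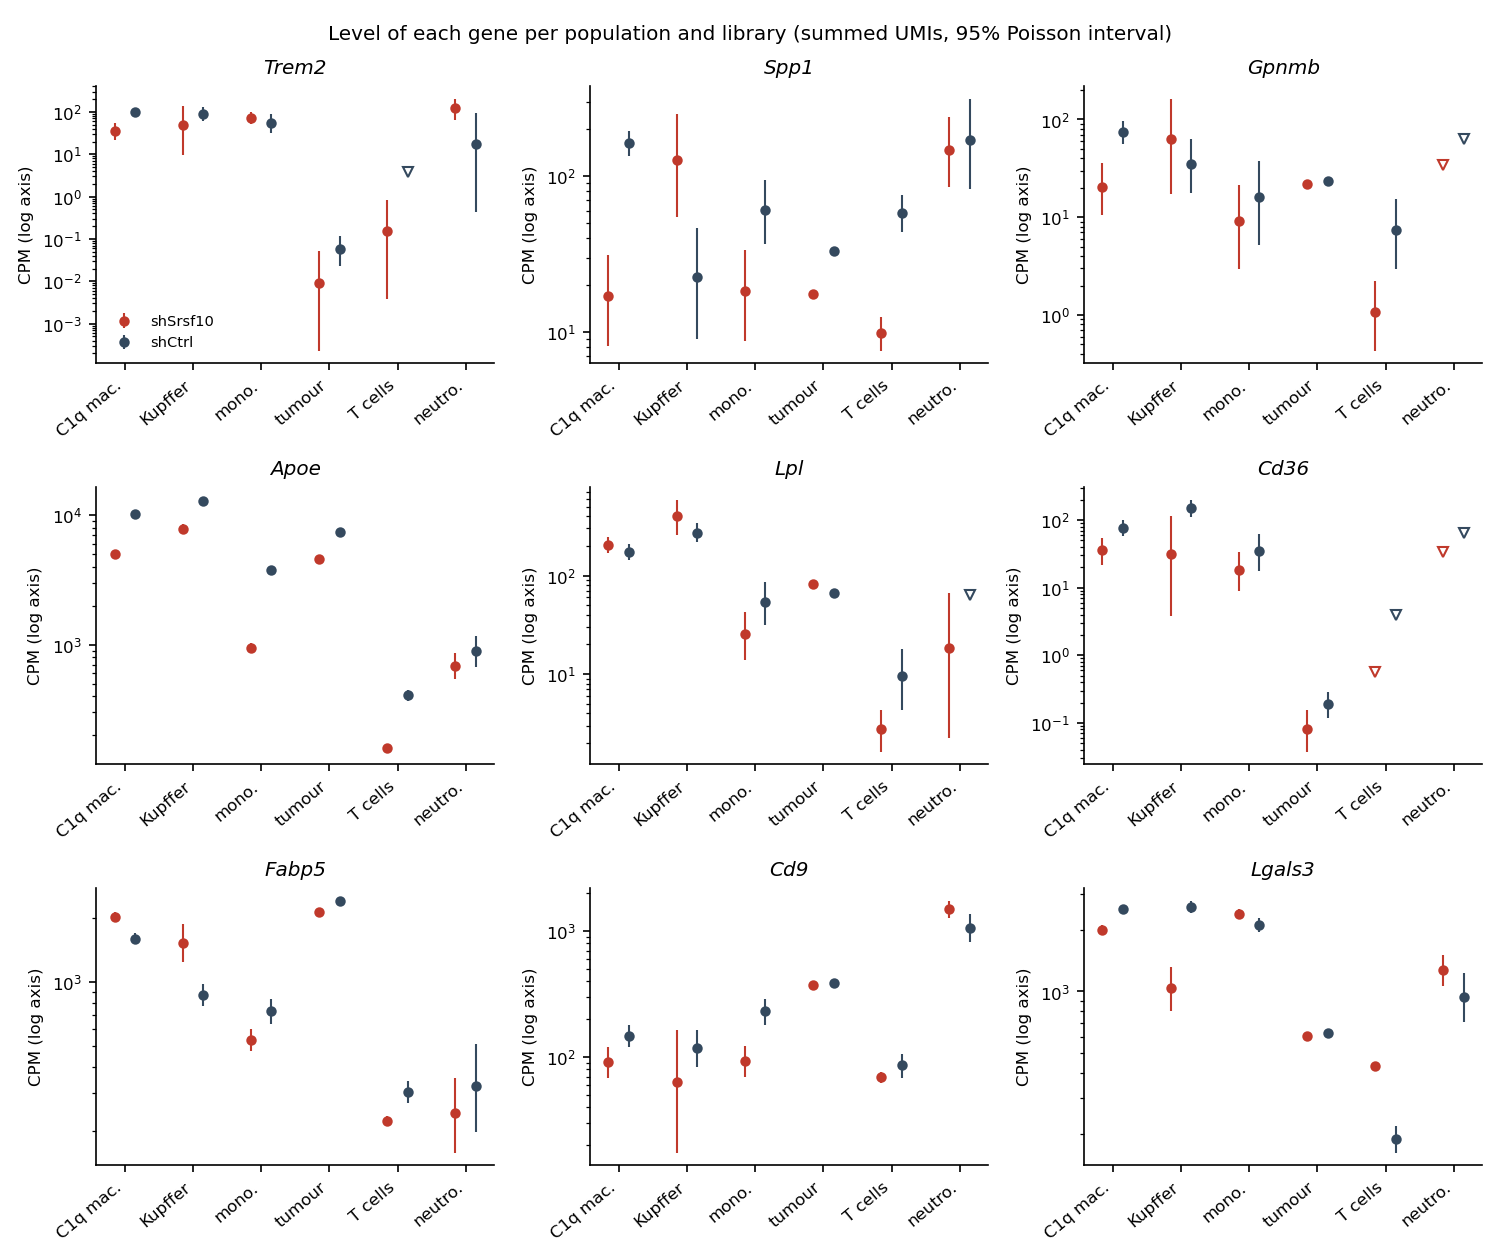
Level of each gene in CPM (log axis) in 6 populations, with shSrsf10 left of shCtrl. Points are summed UMIs with a 95% Poisson interval, and an open triangle is the upper bound where no UMI was found. Apoe in C1q macrophages stands at 4978 CPM in shSrsf10 and 10145 CPM in shCtrl.

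Trem2 (chromosome 17, 48346401 to 48354147, + strand, GRCm38) was a gene of the myeloid cells. It had 21 UMIs in shSrsf10 C1q macrophages and 73 in shCtrl C1q macrophages, 35.5 CPM (22.0 to 54.3) and 101 CPM (79.0 to 127). The log2 ratio was -1.50 (-2.28 to -0.79). In monocytes the order of the libraries was the other one, at 73.2 CPM in shSrsf10 and 54.3 CPM in shCtrl, with a log2 ratio of 0.43 (-0.42 to 1.34) whose interval holds 0. Kupffer-type cells had 47.9 CPM from 3 UMIs in shSrsf10 and 89.9 CPM from 28 UMIs in shCtrl. Tumour cells were almost without it, with 1 UMI in 3704 shSrsf10 cells and 7 UMIs in 6325 shCtrl cells, and T cells had 1 and 0 UMIs. Of all Trem2 UMIs in kept cells, C1q macrophages held 25.6% in shSrsf10 and 57.5% in shCtrl, and monocytes 48.8% and 13.4%. The 13 Trem2 UMIs of shSrsf10 neutrophils came from 1 cell.

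Within shSrsf10, Trem2 was lower in C1q macrophages than in monocytes, a log2 ratio of -1.04 (-1.88 to -0.25). In shCtrl the same log2 ratio was 0.89 (0.11 to 1.75), and 0.60 (-0.20 to 1.47), an interval that holds 0, without the C1q macrophage with most Trem2. The share of cells with a Trem2 UMI in shCtrl was 11.8% of C1q macrophages and 14.8% of monocytes, and after thinning to 1000 UMIs per cell 14 of 209 and 7 of 100 cells, so the order in shCtrl depends on the measure. C1q macrophages and Kupffer-type cells of shCtrl did not differ in Trem2 beyond counting error, at 0.16 (-0.48 to 0.85).

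Spp1 (osteopontin, a secreted ligand of integrins and CD44; chromosome 5, 104435118 to 104441050, + strand) had the lowest ratio of the group in C1q macrophages. Its UMIs numbered 10 in shSrsf10 and 118 in shCtrl, 16.9 CPM (8.11 to 31.1) and 163 CPM (135 to 195), a log2 ratio of -3.27 (-4.36 to -2.34). Few cells carried it: 3 of 136 shSrsf10 cells and 14 of 262 shCtrl cells had a Spp1 UMI. One shCtrl cell with 9415 UMIs held 85 of the 118. Without that cell Spp1 was at 46.1 CPM in shCtrl and the log2 ratio was -1.45 (-2.63 to -0.39). With stricter definitions of the populations it was -0.70 (-1.99 to 0.51). Most Spp1 of the series was in tumour cells, which held 91.3% of its UMIs in shSrsf10 and 92.5% in shCtrl, at 17.6 and 32.9 CPM, a log2 ratio of -0.90 (-0.98 to -0.83). T cells had 9.81 and 58.2 CPM, and 8 of 320 shCtrl T cells held all 55 UMIs there, 24 of them in 1 cell. Neutrophils had 148 CPM from 16 UMIs in shSrsf10 and 172 CPM from 10 UMIs in shCtrl, a log2 ratio of -0.21 (-1.44 to 1.09). The shSrsf10 neutrophil level (84.9 to 241) was above that of C1q macrophages. In shCtrl the neutrophil interval (82.3 to 316) holds the C1q macrophage level. Single neutrophils held 11 of the 16 and 6 of the 10 UMIs.

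Gpnmb (a glycoprotein of lysosome-related organelles; chromosome 6, 49036546 to 49070929, + strand) had 12 UMIs in 4 shSrsf10 cells and 54 UMIs in 13 shCtrl cells. These are 20.3 CPM (10.5 to 35.5) and 74.5 CPM (56.0 to 97.2), a log2 ratio of -1.88 (-2.91 to -0.96). The ratio was nearer to 0 when cells weighed more alike. With each cell thinned to 1000 UMIs it was -0.10 (-1.65 to 1.30), and as a mean of the CPM per cell -0.26, both short of 1.5-fold. Tumour cells had 21.7 and 23.3 CPM, a log2 ratio of -0.10 (-0.18 to -0.03), and held 94.75% and 93.8% of the Gpnmb UMIs in kept cells. In monocytes it had 5 UMIs in each library. Kupffer-type cells had 63.8 CPM from 4 Gpnmb UMIs in shSrsf10 and 35.3 CPM from 11 in shCtrl.

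Trem2, Spp1 and Gpnmb together had 43 UMIs in shSrsf10 C1q macrophages and 245 in shCtrl C1q macrophages. Cells with any of the 3 genes were 17 of 136 (12.5%, exact interval 7.45 to 19.3) in shSrsf10 and 39 of 262 (14.9%, 10.8 to 19.8) in shCtrl, and the intervals of the shares overlap. These shares are not matched for depth. Cells with any of the 3 had a median of 5335 UMIs in shSrsf10 and 2624 in shCtrl, against 3111 and 1887 without. In cells thinned to 1000 UMIs the shares were 1.79% and 6.70% for Trem2, 1.79% and 4.31% for Spp1, and 2.68% and 3.83% for Gpnmb. No shSrsf10 cell held 10 or more of these UMIs, against 4 shCtrl cells, which held 170 of the 245. Both Trem2 and Gpnmb were found in 0 shSrsf10 and 8 shCtrl cells. Trem2 and Spp1 together were found in 1 and 10 cells.

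The shCtrl cell with most of them had 14 Trem2, 85 Spp1, 14 Gpnmb, 251 Apoe, 93 Fabp5 and 189 Lgals3 UMIs, 103 C1q UMIs, 1 keratin UMI and 0 Cd3 UMIs. The next had 10 Trem2, 4 Spp1, 14 Gpnmb, 224 Apoe, 99 Fabp5 and 106 Lgals3 UMIs among 5616 in all. In shSrsf10 the leading cell, with 4238 UMIs, had 1 Trem2, 8 Spp1, 0 Gpnmb and 120 Apoe UMIs. Without the leading shCtrl cell the log2 ratio of Trem2 was -1.22 (-2.01 to -0.48) and that of Gpnmb -1.46 (-2.53 to -0.50), and the same 6 genes were at least 1.5-fold lower.

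**Figure D2:**
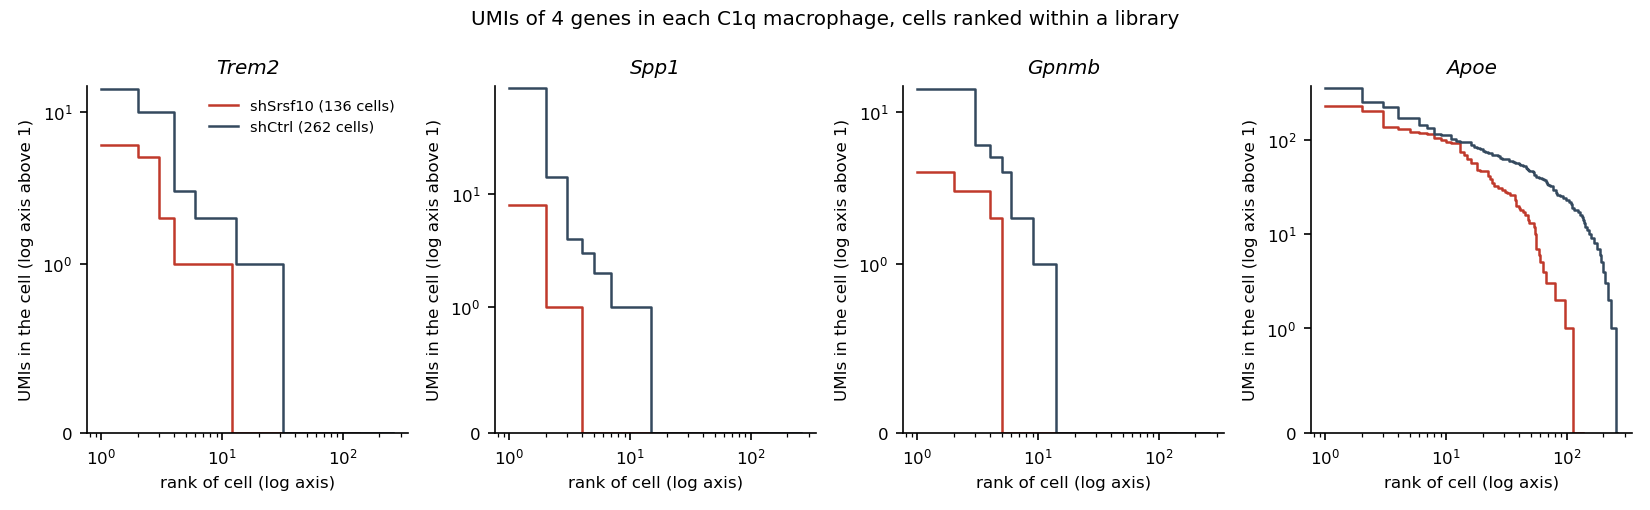
UMIs of Trem2, Spp1, Gpnmb and Apoe (log axis above 1) in each C1q macrophage, with cells ranked within the library (log axis), 136 shSrsf10 cells and 262 shCtrl cells. For Spp1 the first shCtrl cell reaches 85 UMIs and the first shSrsf10 cell 8, while Apoe is spread over most cells.

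Apoe (the lipoprotein ligand that carries cholesterol out of macrophages; chromosome 7, 19696109 to 19699188, - strand) was the most abundant of the 9 genes in C1q macrophages. It had 2943 UMIs in shSrsf10 and 7351 in shCtrl, 4978 CPM (4800 to 5161) and 10145 CPM (9915 to 10380), a log2 ratio of -1.03 (-1.09 to -0.97). Per cell the median was 1721 CPM in shSrsf10 and 6715 CPM in shCtrl, and the highest cell 56515 and 85666 CPM. An Apoe UMI was seen in 112 of 136 shSrsf10 cells and 255 of 262 shCtrl cells. After thinning, the shares were 69.6% (78 of 112 cells) and 90.9% (190 of 209 cells). Among C1q macrophages with no Cd3 UMI the level was 6444 and 10764 CPM, a log2 ratio of -0.74 (-0.80 to -0.68).

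Outside C1q macrophages, Apoe was at least 1.5-fold lower in shSrsf10 in monocytes, tumour cells and T cells, and in neutrophils it was at 687 CPM in shSrsf10 and 893 CPM in shCtrl (log2 ratio -0.38, -0.91 to 0.16). Monocytes had 944 CPM in shSrsf10 and 3797 CPM in shCtrl (log2 ratio -2.01, -2.16 to -1.86). There 1 shCtrl cell of 64079 UMIs held 565 of 1188 Apoe UMIs, and without it the log2 ratio was -1.41 (-1.58 to -1.24). The 7 tumour epithelial markers summed to 555 CPM in shSrsf10 and 4043 CPM in shCtrl. With at most 1 keratin UMI per myeloid cell the monocyte values were 936 and 2332 CPM, a log2 ratio of -1.32 (-1.51 to -1.12). Tumour cells had 4566 and 7407 CPM, a log2 ratio of -0.70 (-0.70 to -0.69), and held 95.2% and 96.1% of all Apoe UMIs in kept cells. In T cells, where Apoe was in 17.1% of thinned shSrsf10 and 36.6% of thinned shCtrl cells, the level was 158 and 407 CPM. Kupffer-type cells had the highest level, 7833 CPM in 9 shSrsf10 cells and 12794 CPM in 139 shCtrl cells. The part of free tumour RNA in these ratios was not tested.

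Lpl (lipoprotein lipase, which releases fatty acids from triglycerides; chromosome 8, 68880491 to 68907448, + strand) did not follow Apoe. C1q macrophages had 121 UMIs in shSrsf10 and 126 in shCtrl, 205 CPM (170 to 245) and 174 CPM (145 to 207), a log2 ratio of 0.24 (-0.14 to 0.61) whose interval holds 0. Thinned to 1000 UMIs per cell it was 0.85 (0.03 to 1.66), past 1.5-fold, with a UMI in 19.6% of shSrsf10 and 11.5% of shCtrl cells. Tumour cells had 81.2 and 66.6 CPM, a log2 ratio of 0.29 (0.24 to 0.33). Monocytes had 25.6 and 54.3 CPM from 14 and 17 UMIs, a log2 ratio of -1.08 (-2.22 to 0.02), and 10 of the 17 were in 1 cell. In both libraries Lpl was higher in C1q macrophages than in monocytes, by a log2 ratio of 2.998 in shSrsf10 and 1.68 in shCtrl, and highest in Kupffer-type cells, at 399 and 273 CPM.

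Cd36 (a scavenger receptor and fatty acid transporter; chromosome 5, 17781690 to 17888801, - strand) was, like Trem2, nearly absent from tumour cells, with 9 UMIs in shSrsf10 and 23 in shCtrl, and had 0 UMIs in T cells and neutrophils of both libraries. Kept cells outside the 6 populations held 41.7% of its UMIs in shSrsf10 and 20.3% in shCtrl, against 3.66% and 0.79% for Trem2. C1q macrophages had 21 UMIs in 15 shSrsf10 cells and 56 UMIs in 38 shCtrl cells, 35.5 CPM (22.0 to 54.3) and 77.3 CPM (58.4 to 100.4). The log2 ratio was -1.12 (-1.92 to -0.37), and -0.36 (-2.22 to 1.25) in thinned cells, short of 1.5-fold. Kupffer-type cells had 31.9 CPM from 2 UMIs in shSrsf10 and 151 CPM from 47 UMIs in shCtrl. In shCtrl this was above C1q macrophages, which stood at a log2 ratio of -0.97 (-1.55 to -0.37) to Kupffer-type cells.

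Fabp5 (a cytosolic fatty acid binding protein; chromosome 3, 10012548 to 10016607, + strand) was higher in shSrsf10 C1q macrophages by less than 1.5-fold. It had 1197 UMIs in shSrsf10 and 1163 in shCtrl, 2025 CPM (1912 to 2143) and 1605 CPM (1514 to 1700), a log2 ratio of 0.34 (0.22 to 0.45). Weighting each cell equally the mean was 2404 and 1428 CPM, a log2 ratio of 0.75, and the median cell had 1233 and 662 CPM. A UMI was seen in 65.2% of thinned shSrsf10 and 50.2% of thinned shCtrl cells, beside 13.6% and 21.5% of T cells. Monocytes had 534 and 729 CPM, a log2 ratio of -0.45 (-0.70 to -0.19), but 94 of the 228 shCtrl UMIs came from the cell of 64079 UMIs. Without that cell the log2 ratio was -0.01 (-0.31 to 0.29), and the mean CPM per cell was 458 and 484, with a UMI in 51.4% and 50.9% of monocytes. The summed value also moved to 0.05 (-0.25 to 0.36) when monocytes with a Cd3 UMI were left out. Tumour cells had 2137 and 2413 CPM, a log2 ratio of -0.18 (-0.18 to -0.17). Kupffer-type cells had 1532 CPM from 96 UMIs in shSrsf10, 54 of them in 1 cell, and 870 CPM from 271 UMIs in shCtrl.

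Cd9 (a tetraspanin that organises membrane partners; chromosome 6, 125460266 to 125494791, - strand) had 54 UMIs in shSrsf10 and 107 in shCtrl C1q macrophages, 91.3 CPM (68.6 to 119) and 148 CPM (121 to 178). This is a log2 ratio of -0.69 (-1.19 to -0.21). When cells that also met the tumour definition were kept, the sign was the other one, at 0.12 (-0.12 to 0.35), and tumour cells themselves had 376 and 388 CPM. Neutrophils had the highest Cd9, at 1494 CPM in shSrsf10 and 1064 CPM in shCtrl. Kupffer-type cells had 63.8 CPM from 4 UMIs in shSrsf10 and 119 CPM from 37 UMIs in shCtrl. Cd9 lies opposite Gm28809 and Gm26728, which had 596 and 51 UMIs over both libraries, and whether the authors' counting used strand is not given in the sources used here.

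Lgals3 (galectin-3, a lectin that marks damaged lysosomes; chromosome 14, 47367751 to 47386160, + strand) had 1186 UMIs in shSrsf10 and 1844 in shCtrl C1q macrophages, 2006 CPM (1894 to 2124) and 2545 CPM (2430 to 2664). The log2 ratio was -0.34 (-0.45 to -0.24), under 1.5-fold, and 5 shCtrl cells held 33.2% of the shCtrl UMIs. By cell the order was the other one: the median cell had 1893 and 1383 CPM, the mean CPM per cell was 2240 and 2149 (log2 ratio 0.06), and 91.2% and 80.5% of cells had a UMI. After thinning, 76.8% and 76.1% of cells had one. Monocytes had 2396 and 2116 CPM, a log2 ratio of 0.18 (0.04 to 0.32), and tumour cells 606 and 627 CPM, a log2 ratio of -0.05 (-0.06 to -0.03). Kupffer-type cells had 1037 CPM from 65 UMIs in shSrsf10 and 2607 CPM from 812 UMIs in shCtrl. T cells were the only one of 5 populations with a ratio where Lgals3 was at least 1.5-fold higher in shSrsf10, at 433 and 188 CPM, a log2 ratio of 1.201 (0.98 to 1.43).

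**Figure D3:**
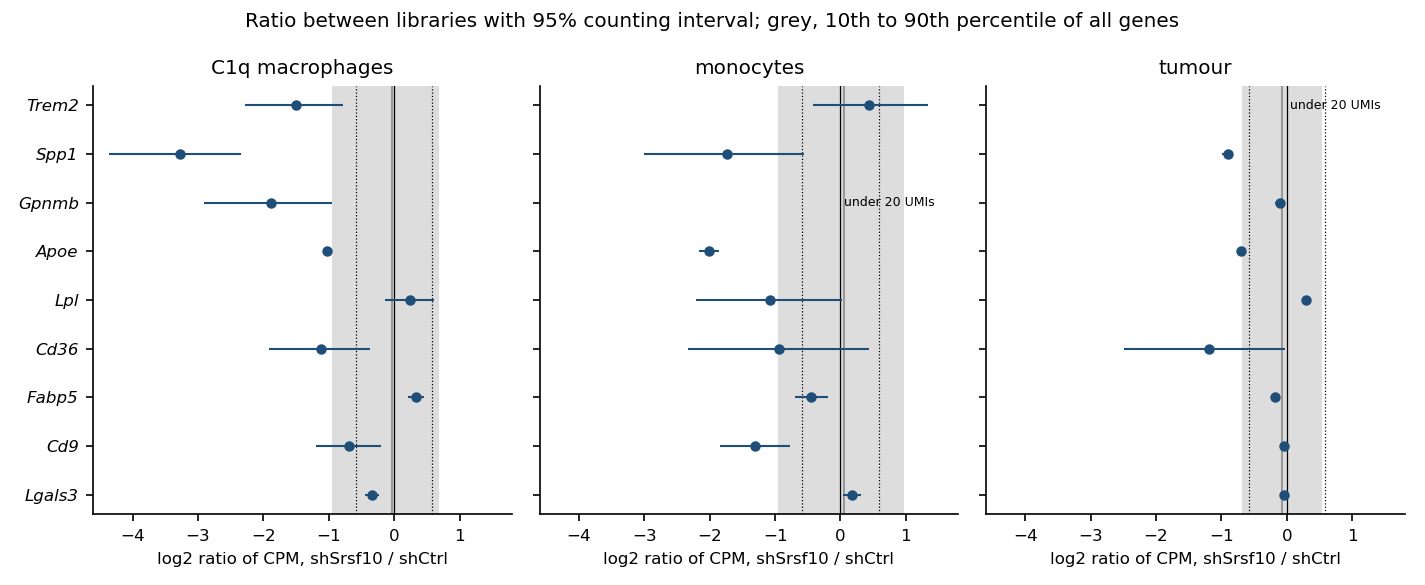
Log2 ratio of CPM, shSrsf10 over shCtrl, of each gene in C1q macrophages, monocytes and tumour cells, with a 95% counting interval. The grey band runs from the 10th to the 90th percentile of all genes measured, the grey line is their median, and dotted lines mark 1.5-fold. Spp1, Gpnmb, Trem2, Cd36 and Apoe lie left of the band in C1q macrophages, and in monocytes Apoe stands at -2.01.

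Over all monocytes, 8 of the 9 genes had at least 20 UMIs, and 5 of them, Spp1, Apoe, Lpl, Cd36 and Cd9, were at least 1.5-fold lower in shSrsf10 while 0 were higher. Of 4047 genes, 18.8% were lower and 20.9% higher there. The intervals of Lpl and Cd36 hold 0. Single shCtrl cells held 15 of 19 Spp1, 10 of 17 Lpl and 33 of 72 Cd9 UMIs. Leaving out, for each gene, the shCtrl monocyte with most of it left 2 of 8 genes lower, Apoe and Cd9, and 1 higher, Trem2 at 0.59 (-0.30 to 1.55), with a median log2 ratio of -0.07. Spp1 was then at 0.51 (-1.28 to 2.64) and Lpl at -0.14 (-1.54 to 1.41). In tumour cells 3 of 8 genes, Spp1, Apoe and Cd36, were lower and 0 higher, beside 13.1% and 9.13% of 14695 genes, and the Cd36 value rests on 32 UMIs over both libraries. The median log2 ratio of the measured genes was -1.01 in monocytes, beside 0.05 over all genes, and -0.14 in tumour cells, beside -0.07. In T cells 3 of 6 measured genes, Spp1, Apoe and Lpl, were lower and Lgals3 was higher, beside 25.9% and 12.5% of 9555 genes. There 1 shCtrl T cell held 24 of 55 Spp1 UMIs, and Lpl had 18 UMIs in shSrsf10 and 9 in shCtrl. In neutrophils 0 of 5 measured genes passed the fold in either direction, beside 10.9% lower and 40.3% higher of 989 genes.

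With each cell thinned to 1000 UMIs, 112 shSrsf10 and 209 shCtrl C1q macrophages remained, and 24 and 53 shallower cells were left out. Trem2 was then seen in 2 of 112 shSrsf10 cells, 1.79% (0.217 to 6.30), and in 14 of 209 shCtrl cells, 6.70% (3.71 to 10.98). Without thinning the shares were 8.09% and 11.8%. Thinned T cells had Trem2 in 0 of 1763 shSrsf10 and 0 of 279 shCtrl cells, a limit at 3 counts of 0.170% and 1.08% and an exact upper bound of 0.209% and 1.31%, at a median depth of 2439 and 1877 UMIs before thinning. A shSrsf10 C1q macrophage had a mean of 2.50 of the 9 genes detected and a shCtrl one 2.62. Cells with at least 5 of the 9 were 4 of 112 (3.57%) and 11 of 209 (5.26%). Among thinned shCtrl cells, Gpnmb was in 4 of the 14 cells with Trem2 and in 4 of the 195 without it, and the Spearman correlation of Trem2 was 0.36 with Gpnmb and 0.33 with Apoe across 209 cells that share 1 library. In shSrsf10 only 2 thinned cells had Trem2.

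The ratios were also formed apart in C1q macrophages under 3000 UMIs (61 shSrsf10 and 179 shCtrl cells) and in deeper ones (75 and 83 cells), a division chosen after seeing the data. Trem2 was lower in shSrsf10 in both, with a log2 ratio of -1.23 (-3.60 to 0.48) in the shallow cells and -1.61 (-2.48 to -0.80) in the deep ones. Apoe was at 3221 CPM in shSrsf10 and 12763 CPM in shCtrl in the shallow cells and at 5244 and 8542 CPM in the deep ones. These are log2 ratios of -1.99 (-2.18 to -1.80) and -0.70 (-0.78 to -0.63). Gpnmb had ratios of opposite sign: the shallow cells had 7 UMIs in shSrsf10 and 8 in shCtrl, 90.2 and 29.1 CPM, and the deep cells 5 and 46 UMIs, 9.74 and 102 CPM. The log2 ratios were 1.63 (-0.06 to 3.29) and -3.39 (-5.08 to -2.07). The shallow value has fewer than the 20 UMIs asked of a ratio, and its interval holds 0. Single shallow shSrsf10 cells held 4 and 3 of the 7 UMIs, and single deep shCtrl cells 14 and 14 of the 46. Whether the Gpnmb difference follows depth or these few cells was not tested. Fabp5 was higher in the shallow cells by a log2 ratio of 1.01 (0.77 to 1.26), against 0.14 in the deep ones, and Lgals3 was at 0.21 (-0.04 to 0.44) and -0.53 (-0.65 to -0.41).

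**Figure D4:**
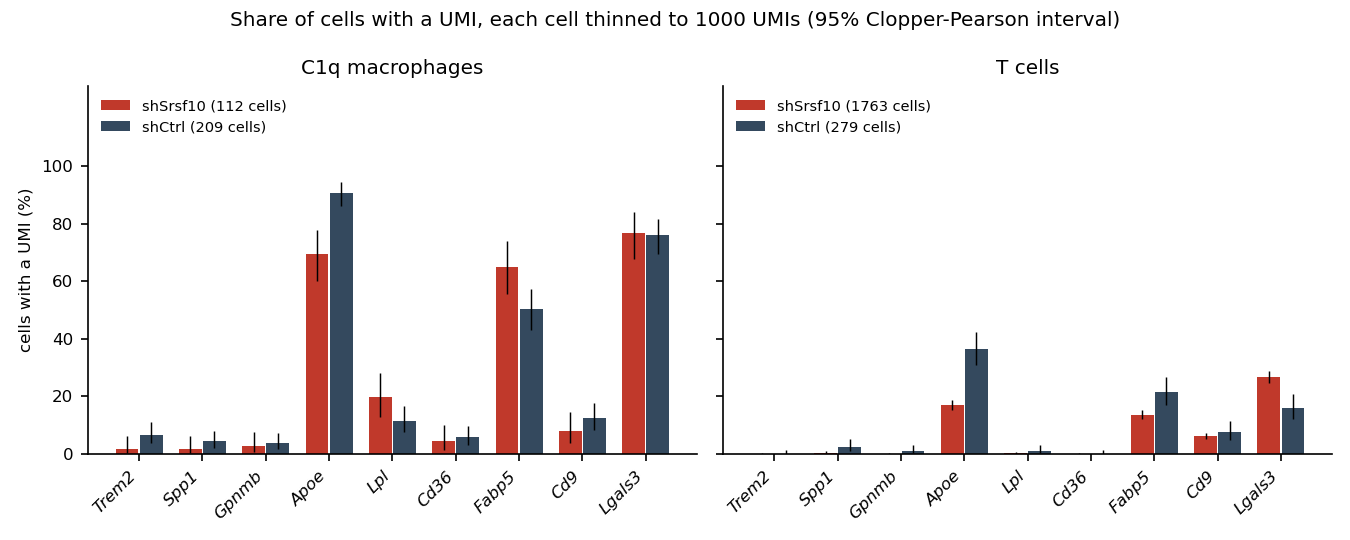
Share of cells with a UMI of each gene after thinning every cell to 1000 UMIs, in C1q macrophages and in T cells as background, with 95% Clopper-Pearson intervals; shSrsf10 is left of shCtrl. In C1q macrophages the Apoe bars stand at 69.6% and 90.9% and the Lpl bars at 19.6% and 11.5%.

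Across the 6 populations of both libraries, 12 points, the genes whose log2(CPM + 10) was most like that of Trem2 included Treml4, Gm5150, Stx7 and Gab2 (Pearson r of 0.95 or 0.96 each), of 2875 genes with at least 50 UMIs in C1q macrophages. Within the group, Trem2 was most like Lgals3 (0.86) and Cd36 (0.69). Apoe, Lpl, Gpnmb and Fabp5 were alike among themselves, at 0.80 to 0.91. The points share libraries and populations. The highest Trem2 point, shSrsf10 neutrophils at 121 CPM, came from 13 UMIs of 1 cell, and that of shSrsf10 Kupffer-type cells from 3 UMIs of 1 cell.

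Genes that act with the group were described in 4 lists in C1q macrophages. Over all genes measured there, 19.7% were lower and 12.4% higher by 1.5-fold, and the counts below are descriptions beside those shares. Of 25 further lipid-associated and lysosomal genes, all measured, 4 were at least 1.5-fold lower and 2 higher in shSrsf10, with a median log2 ratio of -0.21. Lipa, the lysosomal acid lipase, was at 42.3 CPM in shSrsf10 and 96.6 CPM in shCtrl (log2 ratio -1.19, -1.91 to -0.51). Plin2, which coats lipid droplets, was at 198 and 377 CPM, a log2 ratio of -0.93 (-1.25 to -0.61). Capg, an actin capping protein, was higher at 337 and 150 CPM, a log2 ratio of 1.16 (0.82 to 1.51). Fabp4 had a log2 ratio of 3.32, but 266 of its 268 shSrsf10 UMIs came from 1 cell. Cd68 differed by less than its counting error, at -0.09 (-0.29 to 0.11).

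Of 19 receptors and partners of the group, 16 were measured, and 8 were lower and 1 higher, with a median of -0.56. Of the integrin chains in the list, Itgav, Itga9 and Itgb5 (log2 ratio -0.59) were lower, Itgb1 (-0.52) and Itga4 (0.41) lay within 1.5-fold, and Itgb3 had 1 UMI in each library. Itgav, an integrin chain, was at 16.9 CPM in shSrsf10 and 73.1 CPM in shCtrl (log2 ratio -2.11, -3.25 to -1.12), Cd44 at 186 and 391 CPM, a log2 ratio of -1.07 (-1.40 to -0.75), and Itga9 at 98.1 and 189 CPM, a log2 ratio of -0.95 (-1.42 to -0.49). Tyrobp, the adaptor of Trem2, was close in both libraries at 3414 and 3666 CPM, a log2 ratio of -0.10 (-0.19 to -0.02). The 1 higher gene, Gpihbp1, which anchors Lpl on capillary endothelium, had all 48 shSrsf10 UMIs in 1 cell.

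Of 21 cholesterol export and lipid regulators, 19 were measured, with 6 lower, 2 higher and a median of -0.09. Apoc1, an apolipoprotein encoded beside Apoe, was at 28.8 CPM in shSrsf10 and 74.5 CPM in shCtrl (log2 ratio -1.37, -2.25 to -0.57). Abca1, the cholesterol exporter, was at 62.6 and 99.4 CPM, a log2 ratio of -0.67 (-1.28 to -0.08). Nr1h3, the oxysterol receptor that activates Apoe and Abca1, was at 232 and 177 CPM, a log2 ratio of 0.39 (0.03 to 0.75). Of 28 relatives of the 9 genes, 19 were measured, with 3 lower, 5 higher and a median of 0.18. Among them Pnpla2, a triglyceride lipase, had a log2 ratio of 0.98 (0.19 to 1.797) and Cd53, a tetraspanin of leukocytes, 0.62 (0.23 to 1.01). The 5 higher relatives include Fabp4, with 266 of 268 shSrsf10 UMIs in 1 cell. The list of relatives repeats Fabp4, Cd63, Lgals1, Cd81, Cd82, Scarb1, Apoc1 and Apoc2 from the lists above, so the lists are not separate sets.

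**Figure D5:**
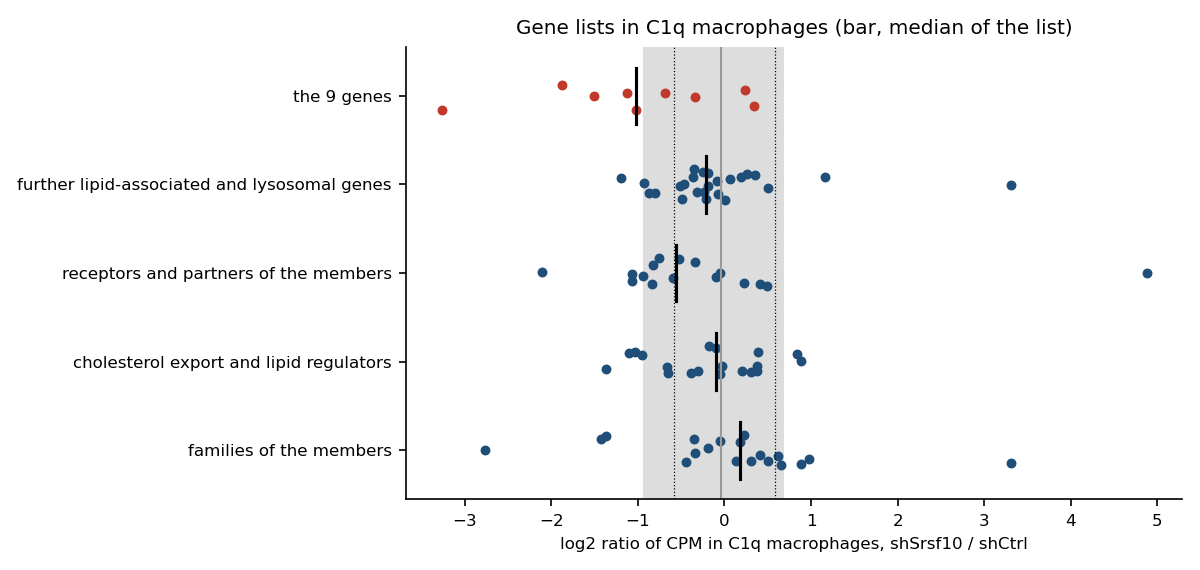
Log2 ratio in C1q macrophages, shSrsf10 over shCtrl, of the 9 genes (red) and of 4 lists of related genes (blue), 1 point per measured gene and a bar at the median. The grey band holds the middle of all genes measured (10th to 90th percentile) and dotted lines mark 1.5-fold. The bar of the 9 genes is at -1.03 and those of the lists lie between -0.56 and 0.18.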

How the data were processed

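Droplet single-cell RNA was measured in 1 shSrsf10 and 1 shCtrl library of mouse tumours. The deposited files hold counts, whole-number UMIs per gene and barcode that were not normalized, made with Cell Ranger 6.1.0 on mm10 per the submitters' processing notes. How doublets were treated before deposit is not given in the sources used here.

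Cell filters were a minimum of 200 genes and 500 UMIs per barcode and a mitochondrial share of up to 20%. The highest Scrublet scores (scanpy 1.11.5, seed 1) were removed at 0.8% per 1000 barcodes, 448 in shSrsf10 and 728 in shCtrl. A barcode that met more than 1 of the 4 definitions was left out. T cells had at least 2 Cd3d, Cd3e and Cd3g UMIs, and neutrophils at least 1% of UMIs from S100a8 and S100a9 and 1 Lyz2 UMI, both with at most 4 keratin UMIs.

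UMIs were summed per library and population and divided by the population total (CPM). Intervals were exact Poisson for a level, exact conditional binomial for a ratio and exact Clopper-Pearson for a share (scipy 1.17.1). Only the ratio interval was tested on simulated data. These were independent Poisson counts, which is what that interval assumes, so the simulation cannot speak to RNA held by single cells. Level and ratio intervals treat UMIs as independent, so RNA held by 1 cell makes them too narrow. A ratio needed 20 UMIs over both libraries, and 1.5-fold was counted as higher or lower. Thinning drew 1000 UMIs per cell. Coordinates came from GENCODE M21 and promoters from RefSeq. The genes named were all 9, and of each related list the 2 to 4 with the largest ratio in C1q macrophages among those with at least 50 UMIs, with Tyrobp, Cd68, Csf1r, Adgre1 and Mrc1 for their roles and the 5 genes most like Trem2. Itgb1, Itgb3, Itgb5 and Itga4 were added after their values were seen. The members and lists were chosen with earlier results of these data known. Of those 5 genes, 1 is not reported here.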

Additional observations from a re-analysis of the deposited data

Results flagged for a closer look

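Some genes of the group had ratios of opposite sign in different populations, each with a counting interval that leaves out 0. The differences between populations were not tested, since each population had 1 library per group. For Fabp5 the log2 ratio was 0.34 in C1q macrophages, -0.45 in monocytes and -0.18 in tumour cells, so that C1q macrophages stood 0.78 above monocytes and 0.51 above tumour cells. For Lgals3 the log2 ratio was -0.34 in C1q macrophages, 0.18 in monocytes and -0.05 in tumour cells, so that C1q macrophages differed from monocytes by -0.52 and monocytes from tumour cells by 0.23. All of these ratios are below 1.5-fold. The monocyte value of Fabp5 rests on 1 shCtrl cell with 94 of 228 UMIs: without it the log2 ratio was -0.01, and as a mean CPM per cell (458 in shSrsf10, 484 in shCtrl) -0.08. In C1q macrophages 5 shCtrl cells held 33.2% of the Lgals3 UMIs, and the mean CPM per cell was 2240 and 2149, a log2 ratio of 0.06. The monocyte ratios of both genes moved when monocytes with a Cd3 UMI were left out, to 0.05 for Fabp5 and -0.14 for Lgals3, and T cell markers summed to 75.04 CPM in shSrsf10 and 9.59 CPM in shCtrl monocytes.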

How the results depend on the processing

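No paired analysis was possible because each group had 1 library, and for the same reason no replicate could be left out. In C1q macrophages 4 to 6 of the 9 genes were at least 1.5-fold lower under every alternative tried, depth ranges not counted. Trem2, Spp1 and Apoe were among them each time. The number higher was 0 except with cells thinned to 1000 UMIs, where it was 2 (Lpl and Fabp5), and with the mean CPM per cell, where it was 1 (Fabp5). Cd9 took the other sign with all deposited barcodes (0.15), with no doublet removal (0.14) and with cells meeting several definitions kept (0.12), and Lgals3 with the mean CPM per cell (0.06). In monocytes 5 genes were lower over all cells and 2 without the shCtrl cell with most of each gene. Over these alternatives Trem2 ran from -2.27 to -1.22, Apoe from -1.17 to -0.74, Spp1 from -3.76 to -0.70 and Gpnmb from -2.04 to -0.10. Depth ranges went beyond this: Apoe was at -1.99 in C1q macrophages under 3000 UMIs and -0.70 in deeper ones, and Gpnmb at 1.63 and -3.39. In the shallow cells Lpl (0.92) and Fabp5 (1.01) were at least 1.5-fold higher in shSrsf10. The shallow Gpnmb value rests on fewer than 20 UMIs, and its interval holds 0. The settings that left out single cells or cells with a Cd3 UMI, and those within depth ranges, were chosen after seeing the data. Trem2, Spp1, Gpnmb and Cd36 had at most 118 UMIs per library in C1q macrophages, which limits the precision of their ratios.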
